A study of Mus musculus with 21 samples.

Results

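Cbr3, Car4, Hopx, Plac8, Cthrc1, Tmem54, Ptn and Ppp1r1a are genes with high signal in mouse epiblast-like cells (EpiLC). In some or all of the cell lines studied, their signal dropped strongly by day 6 of germ cell induction. They were picked by symbol for the size of that drop, and 12 probes of the 45281 on the array carry their names, or 8 genes of the 19057 named. Of the 12 probes, 10 passed the filter of detection on at least 3 of 21 arrays. Each gene kept at least 1 probe, so none of the 8 was lost to the filter. The second probes of Hopx and Ptn were detected on no array.

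RNA was hybridised to single-colour Illumina bead arrays in 7 groups of 3. WT cells were the embryonic stem cell line wildtype E14Tg2a. The Otx2-null line carries the alleles named Otx2GFP/lacZ, written Otx2-/-, and the Otx2/Blimp1-null line carries them with Blimp1-/-. EpiLC of all 3 lines had been kept for 2 days with Activin A and FGF2 in N2B27 medium with 1% KSR, a serum replacement. Day-6 cells of all 3 lines were the SSEA1+ and CD61+ fraction of aggregates cultured with BMP4, LIF, BMP8a, SCF and EGF in medium with 15% KSR, and are called PGCLC, primordial germ cell-like cells. A further day-6 group was the same fraction of Otx2-/- aggregates that had only the basal medium. Each genotype is represented by a single line, so genotype and line cannot be told apart. The labels do not say whether the replicates were separate cultures, so p-values measure only the spread between these samples, which may be technical.

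EpiLC are a culture model of the formative epiblast, the tissue that gives rise to germ cells and soma after implantation. Otx2, a transcription factor with a homeodomain, acts in the epiblast and restrains entry into the germ line, and Blimp1 (gene Prdm1) is a repressor that shuts down somatic genes as germ cells form. The 8 genes belong to no single pathway. Cbr3 and Car4 are enzymes, the first an NADPH-dependent carbonyl reductase and the second a membrane-anchored carbonic anhydrase that hydrates carbon dioxide outside the cell. Hopx is a small homeodomain protein that does not bind DNA and acts with serum response factor (SRF) and histone deacetylases. Plac8 is a small cysteine-rich protein first described in placenta, and Tmem54 is a predicted membrane protein. Cthrc1 and Ptn are secreted, Cthrc1 as a glycoprotein that favours the planar polarity branch of Wnt signalling and Ptn, pleiotrophin, as a heparin-binding growth factor. Ppp1r1a is an inhibitor of protein phosphatase 1 that is switched on by protein kinase A.

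Levels are normalised log2 signals, in which a difference of 1 is a doubling, and levels of different genes are not compared because probes differ. The lowest signal of a detected probe ran from 4.83 to 5.31 between arrays. Where a gene was detected on no array of a group, that signal stands in for its own where its own was lower, and the difference is written as "at least". The share of probes detected was 31.1% to 43.2% per array. The summed linear signal of 4 EpiLC markers was 13900 to 26000 in EpiLC and 2310 to 5720 at day 6. In EpiLC it came mainly from Dnmt3b (WT mean 13.62). Mean Fgf5 was 9.06 in WT EpiLC, 8.12 in Otx2/Blimp1-null EpiLC and 6.89 in Otx2-null EpiLC. In EpiLC, 6 naive pluripotency markers summed to 561 to 625 for WT, 1440 to 1540 for Otx2/Blimp1-null and 1650 to 1820 for Otx2-null cells. In the limma test described below, 4 of these passed as higher than WT in each mutant line. In Otx2-null EpiLC 1 passed as lower. The summed signal of 6 germ cell-like markers was 773 to 1870 in EpiLC. At day 6 it was 19300 to 23400 in WT PGCLC, 10500 to 12800 in Otx2-null PGCLC, 17800 to 21500 without cytokines and 3440 to 4300 in Otx2/Blimp1-null PGCLC. The probes for the sort markers Fut4 and Itgb3 lay near the floor. Otx2 itself was detected on every array, at mean levels of 10.98 in WT EpiLC, 11.36 in Otx2-null EpiLC and 11.49 in Otx2/Blimp1-null EpiLC. The place of its probe relative to the altered alleles is not given in the sources used here, so it does not check the labels.

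The drops are described first, and not tested, because they chose the genes. In WT cells the day-6 arrays lay below the EpiLC arrays for 7 of the 8 genes, as they did for 29.3% of all genes. The exception was Ptn. With Otx2 deleted, all 8 genes were lower on every day-6 array, with cytokines and without them, against 29.8% and 30.5% of all genes. In the Otx2/Blimp1-null line 7 of 8 were lower, against 27.3% of all genes, and Hopx was higher on every day-6 array, as were 24.6% of all genes. The median difference of the 8 genes was -4.45 in WT, -4.08 in Otx2-null, -4.39 in Otx2-null without cytokines and -3.12 in Otx2/Blimp1-null cells, and the medians over all genes were 0.06, 0.05, 0.03 and -0.04. With undetected genes at their bound, the medians of the 8 genes were -4.45, -4.08, -4.27 and -3.11. The size of the drops depended on how background was handled, and the folds below are those of the present normalisation. In the authors' normalised table the medians were -6.15, -4.54, -5.46 and -3.59, and 17 of the 32 differences moved by over 1.5 times in fold, all 8 of those in WT included. With 50 added to the intensities in place of background correction they were -3.92, -3.36, -3.64 and -2.70, all 32 differences were smaller, and 19 moved by over 1.5 times. No difference changed sign under either. In RNA from a mixed cell fraction, fewer cells of a type and less RNA per cell cannot be told apart.

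Ranked by the WT drop among 11649 genes, Cbr3, Car4, Hopx and Plac8 held places 1 to 4. Ppp1r1a was at 9, Tmem54 at 11, Cthrc1 at 13 and Ptn at 2668. The epiblast genes Pou3f1 and Fgf5, not among the 8, held places 5 and 6 with differences of -4.29 and -4.23. Genes next to members in that order included Uba6 at -4.01 and Rbp7 at -3.99. Of the 10 largest drops, 5 were among the 8 genes in WT, 3 in Otx2-null, 4 in Otx2-null without cytokines and 2 in Otx2/Blimp1-null cells.

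**Figure D1:**
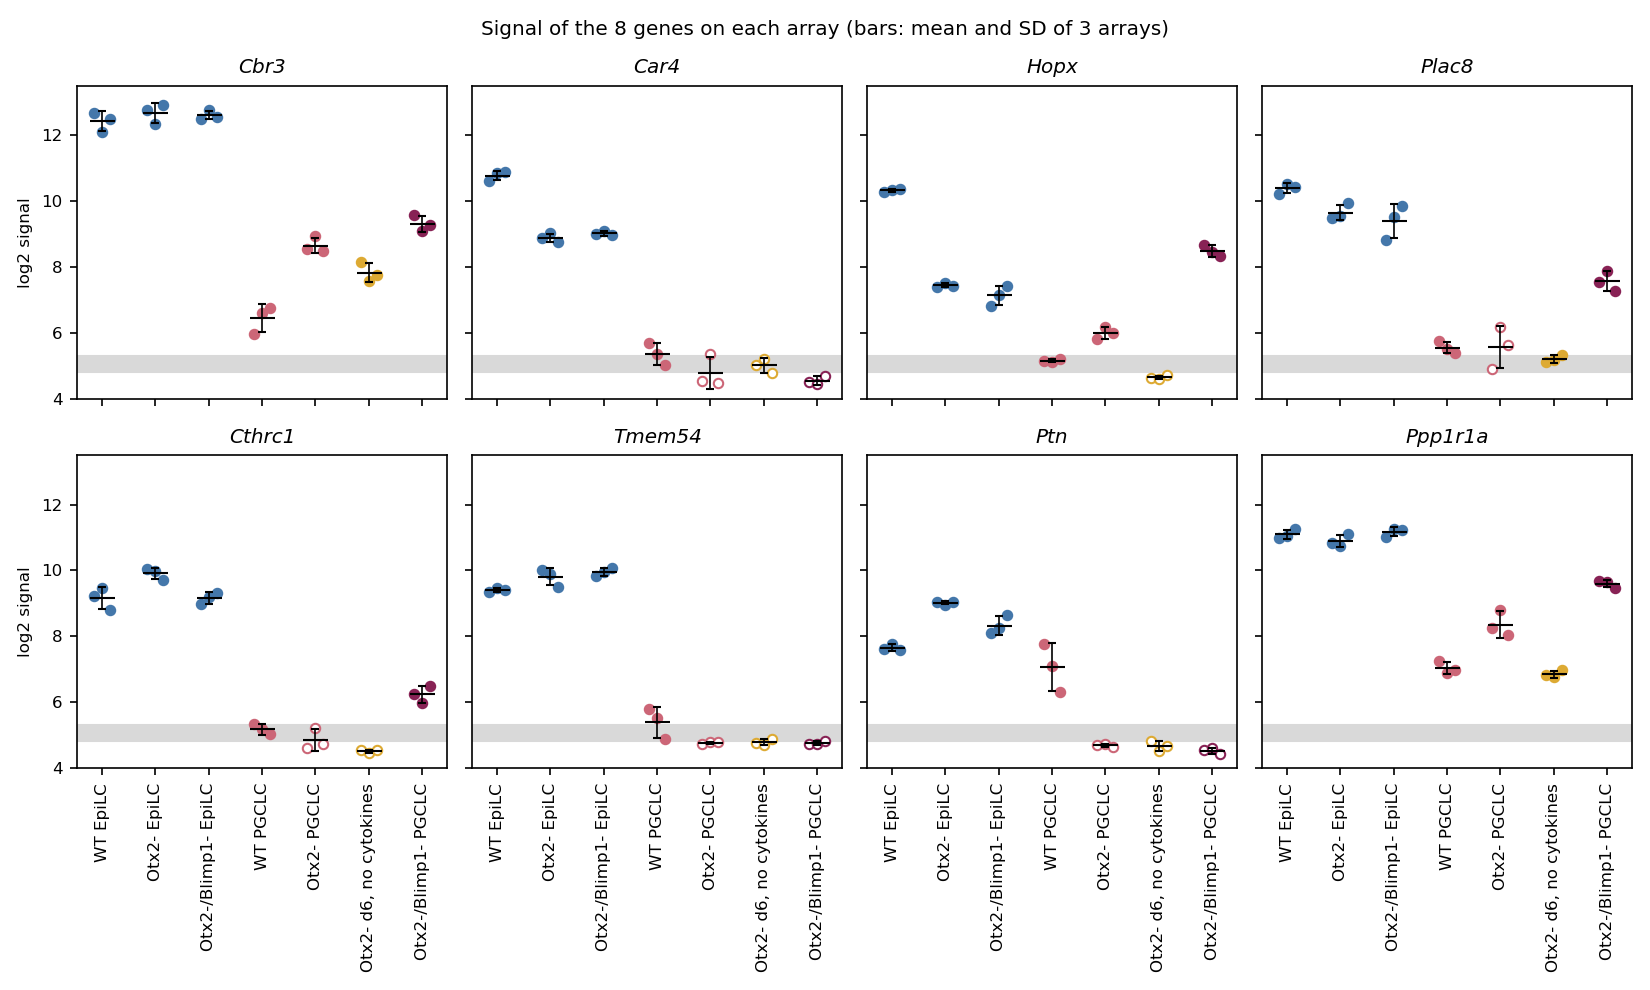
Normalised log2 signal of each of the 8 genes (vertical axis) on the 21 arrays in 7 groups (horizontal axis), with mean and SD of 3 arrays. Open points mark groups in which the gene was not detected on all 3 arrays and the grey band spans the lowest detected signals, 4.83 to 5.31. Hopx in Otx2/Blimp1-null PGCLC, at 8.34 to 8.69, lies above Otx2/Blimp1-null EpiLC, and Ptn in WT PGCLC, at 6.31 to 7.78, spans the WT EpiLC values.

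Among the enzymes, Cbr3 had WT EpiLC levels of 12.68, 12.10 and 12.50. The levels were 12.78, 12.36 and 12.93 in Otx2-null EpiLC and 12.51, 12.77 and 12.57 in Otx2/Blimp1-null EpiLC. These 3 groups overlapped. At day 6 the WT PGCLC arrays read 5.98, 6.61 and 6.77 for Cbr3, and the Otx2-null PGCLC arrays 8.56, 8.94 and 8.49. Without cytokines the values were 8.16, 7.57 and 7.78, and in Otx2/Blimp1-null PGCLC 9.58, 9.09 and 9.29. On this probe the 4 day-6 groups of Cbr3 did not overlap, with WT PGCLC lowest and Otx2/Blimp1-null PGCLC highest. Its day-6 level was lower than in EpiLC by 62.8-fold in WT (log2 difference -5.97, SE 0.21), 16.3-fold in Otx2-null (-4.03), 28.9-fold without cytokines (-4.85) and 9.84-fold in Otx2/Blimp1-null cells (-3.30). The WT difference of Cbr3 was -8.20 in the authors' normalised table and -5.50 with 50 added. A second Cbr3 probe, chosen for a look after the data had been seen, gave differences of -5.51, -4.94, -4.97 and -3.48 in the same order. On it Otx2-null PGCLC (6.34, 5.94 and 5.89) and cells without cytokines (6.14, 6.07 and 5.86) overlapped. WT PGCLC were again lowest (4.94, 5.15 and 5.14) and Otx2/Blimp1-null PGCLC highest (7.24, 7.22 and 7.22).

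Car4 read 10.62, 10.85 and 10.88 in WT EpiLC. In Otx2-null EpiLC it was at 8.88, 9.03 and 8.77, and in Otx2/Blimp1-null EpiLC at 9.00, 9.11 and 8.98. WT EpiLC stood above both mutant lines, whose arrays overlapped. At day 6 Car4 was at the edge of detection, with 5.70, 5.36 and 5.02 in WT PGCLC and 4.55, 5.37 and 4.49 in Otx2-null PGCLC. The cells without cytokines gave 5.04, 5.23 and 4.79, and Otx2/Blimp1-null PGCLC 4.51, 4.46 and 4.70. Car4 was detected on 3, 1, 2 and 0 arrays of those groups, and each group overlapped the next in order of level. The day-6 level was lower than in EpiLC by 42.8-fold in WT (-5.42, SE 0.20), 17.1-fold in Otx2-null (-4.09), 14.7-fold without cytokines (-3.87) and at least 15.8-fold in Otx2/Blimp1-null cells.

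The nuclear cofactor Hopx read 10.29, 10.33 and 10.36 in WT EpiLC. It was at 7.40, 7.52 and 7.43 in Otx2-null EpiLC and at 6.84, 7.17 and 7.43 in Otx2/Blimp1-null EpiLC. The mutant lines overlapped with each other and lay below WT. WT PGCLC gave 5.15, 5.14 and 5.23, Otx2-null PGCLC 5.82, 6.20 and 6.02, and cells without cytokines 4.65, 4.61 and 4.72. The last group was at the floor, with Hopx detected on 0 of 3 arrays. Otx2/Blimp1-null PGCLC gave 8.69, 8.45 and 8.34, above Otx2/Blimp1-null EpiLC on every array. Across all 7 groups the order ran from WT EpiLC through Otx2/Blimp1-null PGCLC to both mutant EpiLC groups and then the other day-6 groups. The difference between day 6 and EpiLC was -5.15 in WT (35.6-fold lower, SE 0.15), -1.43 in Otx2-null cells (2.70-fold lower) and at least 5.82-fold lower without cytokines. In Otx2/Blimp1-null cells it was 1.35, or 2.54-fold higher at day 6. The opposite direction in that line goes against the description of Hopx as a gene lost at day 6.

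Plac8 was at 10.22, 10.53 and 10.45 in WT EpiLC, at 9.50, 9.55 and 9.94 in Otx2-null EpiLC and at 8.83, 9.53 and 9.85 in Otx2/Blimp1-null EpiLC. WT stood above the mutant lines, which overlapped. Day-6 Plac8 levels were 5.75, 5.51 and 5.41 in WT PGCLC, 4.91, 6.19 and 5.65 in Otx2-null PGCLC, and 5.13, 5.18 and 5.35 without cytokines. WT and Otx2-null PGCLC overlapped. Otx2/Blimp1-null PGCLC stood apart from all other groups with 7.56, 7.90 and 7.28. Day 6 was lower than EpiLC by 28.7-fold in WT (-4.84, SE 0.26), 16.9-fold in Otx2-null (-4.08), 21.8-fold without cytokines (-4.44) and 3.54-fold in Otx2/Blimp1-null cells (-1.82).

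For the membrane protein Tmem54, WT EpiLC gave 9.35, 9.46 and 9.40, Otx2-null EpiLC 10.00, 9.90 and 9.51, and Otx2/Blimp1-null EpiLC 9.82, 9.96 and 10.06. Both mutant lines lay above WT and overlapped with each other. WT PGCLC read 5.79, 5.52 and 4.88. In the other 3 day-6 groups Tmem54 was detected on no array, with values between 4.69 and 4.90. The drop was 16.1-fold in WT (-4.01, SE 0.17). It was at least 29.5-fold in Otx2-null, at least 29.8-fold without cytokines and at least 29.9-fold in Otx2/Blimp1-null cells. Tmem54 was thus lower at day 6 in every line.

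Of the secreted proteins, Cthrc1 was at 9.23, 9.48 and 8.80 in WT EpiLC, 10.05, 9.97 and 9.71 in Otx2-null EpiLC and 8.97, 9.20 and 9.33 in Otx2/Blimp1-null EpiLC. Otx2-null EpiLC were highest, and WT and Otx2/Blimp1-null EpiLC overlapped. At day 6 Cthrc1 read 5.34, 5.18 and 5.03 in WT PGCLC, 4.6, 5.23 and 4.73 in Otx2-null PGCLC and 4.54, 4.45 and 4.54 without cytokines. It was detected on 3, 1 and 0 of those arrays by group. Otx2/Blimp1-null PGCLC gave 6.24, 5.98 and 6.49, the highest day-6 group. The drop was 15.8-fold in WT (-3.98, SE 0.19), 33.2-fold in Otx2-null (-5.05), at least 32-fold without cytokines and 7.60-fold in Otx2/Blimp1-null cells (-2.93). A second Cthrc1 probe was detected on 3 arrays and read 4.44 to 4.64 on the day-6 arrays, below the floor, so it gives no measure of day-6 differences.

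Ptn read 7.63, 7.77 and 7.58 in WT EpiLC and 7.78, 7.11 and 6.31 in WT PGCLC, so the groups overlapped and the mean difference was -0.59 (SE 0.23, 1.51-fold). Its description as a gene lost at day 6 therefore held in the mutant lines and not in WT. Otx2-null EpiLC gave 9.04, 8.96 and 9.05, and Otx2/Blimp1-null EpiLC 8.09, 8.24 and 8.66. These EpiLC groups did not overlap each other or WT. In the 3 mutant day-6 groups Ptn was detected on no array, with values between 4.44 and 4.84. The drop was at least 17.1-fold in Otx2-null, at least 17.2-fold without cytokines and at least 9.74-fold in Otx2/Blimp1-null cells.

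The phosphatase inhibitor gene Ppp1r1a read 11.00, 11.05 and 11.25 in WT EpiLC, 10.83, 10.75 and 11.10 in Otx2-null EpiLC and 11.03, 11.27 and 11.23 in Otx2/Blimp1-null EpiLC. All 3 EpiLC groups overlapped. Day-6 values were 7.24, 6.90 and 6.97 in WT PGCLC, 8.24, 8.81 and 8.04 in Otx2-null PGCLC and 6.83, 6.76 and 6.97 without cytokines. Those without cytokines overlapped WT PGCLC, and Otx2-null PGCLC lay above both. Otx2/Blimp1-null PGCLC were highest at day 6, with 9.67, 9.64 and 9.48. The drop was 16.7-fold in WT (-4.06, SE 0.17), 5.78-fold in Otx2-null (-2.53), 16.5-fold without cytokines (-4.04) and 2.99-fold in Otx2/Blimp1-null cells (-1.58).

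**Figure D2:**
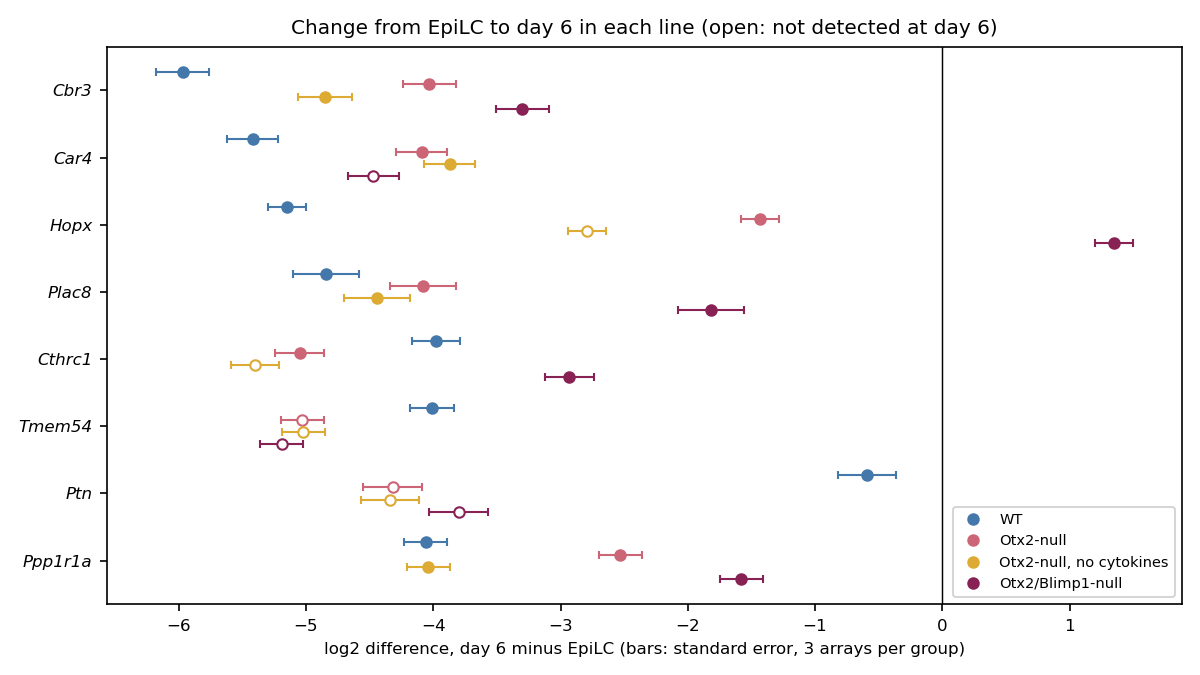
Difference in log2 signal between day 6 and EpiLC (horizontal axis) for each gene (vertical axis) in WT, Otx2-null, Otx2-null without cytokines and Otx2/Blimp1-null cells, with standard errors from 3 arrays per group. Open points mark genes detected on no day-6 array, for which the fitted difference is plotted and not the bound given in the text. The WT values run from -5.97 for Cbr3 to -0.59 for Ptn, and Hopx in Otx2/Blimp1-null cells is the point right of 0, at 1.35.

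The levels of the 8 genes were then compared between lines within a stage, in 8 comparisons that did not choose the genes but share arrays with those that did. Several also share the same WT or Otx2-null arrays, so they are given side by side. Because the genes were chosen for a drop on these arrays, shares of all genes are given for scale only. The counts among the 8 genes cannot be weighed against those shares. Each p below is two-sided, from a limma fit over all genes, adjusted by Benjamini-Hochberg over 11649 genes.

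Before induction, the largest differences between Otx2-null and WT EpiLC among the 8 genes were lower Hopx and Car4 and higher Ptn. Both mutant EpiLC lines also differed from WT in Fgf5 and naive markers, as given above. The part of those markers in the EpiLC differences of the 8 genes was not tested. In all, 5 of 8 passed the test, 2 higher and 3 lower, against 18.7% of all genes (8.22% higher and 10.5% lower). Hopx was 7.35-fold lower (-2.88, SE 0.15, adjusted p = 2.81e-12) and held place 3 among all genes in order of fall. Car4 was 3.70-fold lower (-1.89, SE 0.20, adjusted p = 3.18e-07). Ptn was 2.56-fold higher (1.36, SE 0.23, adjusted p = 0.000133) and Cthrc1 1.67-fold higher (0.74, SE 0.19, adjusted p = 0.00634). Plac8 was 1.67-fold lower (-0.74, SE 0.26, adjusted p = 0.0475). Cbr3 (0.26, 95% interval -0.18 to 0.70), Ppp1r1a (-0.21, -0.56 to 0.14) and Tmem54 (0.40, 0.04 to 0.77, adjusted p = 0.113) did not pass. The Plac8 call was lost on leaving out WT EpiLC replicate 1 (adjusted p = 0.0587), replicate 2 (0.119) or replicate 3 (0.117), or Otx2-null EpiLC replicate 1 (0.128) or 2 (0.112), in the authors' normalised table (0.108) and without the detection filter (0.0956). The Cthrc1 call was lost without WT EpiLC replicate 3 (adjusted p = 0.0578) or with only these groups fitted (0.0587), and Tmem54 passed in the authors' normalised table (0.47, 0.00576).

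Otx2/Blimp1-null EpiLC differed from WT EpiLC in 5 of the 8 genes, 2 higher and 3 lower, against 18.1% of all genes (9.48% higher and 8.64% lower). Hopx was 9.06-fold lower (-3.18, SE 0.15, adjusted p = 5.57e-13), Car4 3.37-fold lower (-1.75, SE 0.20, adjusted p = 9.94e-07) and Plac8 1.99-fold lower (-1, SE 0.26, adjusted p = 0.00792). Tmem54 was 1.46-fold higher (adjusted p = 0.032) and Ptn 1.59-fold higher (adjusted p = 0.0424). The last 2 calls were each lost in 5 of the 6 fits that left out an array, with adjusted p up to 0.104 for Tmem54 and 0.189 for Ptn. Ptn was also lost in the authors' normalised table (0.0886) and without the detection filter (0.0802), and Plac8 was lost without Otx2/Blimp1-null EpiLC replicate 1 (0.0736).

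Fewer of the 8 genes differed between the mutant EpiLC lines than between either line and WT EpiLC. Over all genes the numbers called were closer, at 1863 between the mutant lines and 2183 and 2111 against WT. Of the 8 genes 2 passed, both lower in Otx2/Blimp1-null than in Otx2-null EpiLC, against 16% of all genes (9.79% higher and 6.21% lower). That count is close to the share of all genes. Cthrc1 was 1.68-fold lower (-0.75, SE 0.19, adjusted p = 0.0101) and Ptn 1.61-fold lower (-0.69, SE 0.23, adjusted p = 0.0411). The Cthrc1 call was lost without Otx2/Blimp1-null EpiLC replicate 1 (adjusted p = 0.0684), and the Ptn call in 5 of the 6 fits that left out an array (up to 0.191), in the authors' normalised table (0.179) and without the detection filter (0.0745). With only these groups fitted, both were lost (0.0581 and 0.0688). For Hopx the difference was -0.30 (95% interval -0.60 to 0.00) and for Car4 0.13 (-0.28 to 0.54), and neither passed. In the authors' normalised table Hopx did, at -0.87 (adjusted p = 0.0394).

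The 3 genes that were lower in both mutant EpiLC lines, Hopx, Car4 and Plac8, had promoter sequences in the RefSeq table of build GRCm38.p6, and these are shown because Otx2 is known to bind the letters TAATCC. Each is read 5′ to 3′ on the strand of the gene, up to 250 bases before a start site and outside the annotated gene, with TAATCC or its reverse complement GGATTA in capitals. Hopx is from chr5:77115124-77115373 (minus strand), Plac8 from chr5:100572254-100572455 (minus strand) and Car4 from chr11:84957504-84957753 (plus strand).
Hopx: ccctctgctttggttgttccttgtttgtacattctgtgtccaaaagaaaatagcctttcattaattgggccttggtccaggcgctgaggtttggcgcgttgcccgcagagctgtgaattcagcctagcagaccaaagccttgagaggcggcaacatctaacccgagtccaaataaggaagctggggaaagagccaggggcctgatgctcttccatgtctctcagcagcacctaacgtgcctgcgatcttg
Plac8: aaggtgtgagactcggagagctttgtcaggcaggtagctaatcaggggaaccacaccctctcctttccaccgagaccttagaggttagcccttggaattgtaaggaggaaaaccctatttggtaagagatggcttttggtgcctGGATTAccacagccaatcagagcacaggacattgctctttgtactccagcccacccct
Car4: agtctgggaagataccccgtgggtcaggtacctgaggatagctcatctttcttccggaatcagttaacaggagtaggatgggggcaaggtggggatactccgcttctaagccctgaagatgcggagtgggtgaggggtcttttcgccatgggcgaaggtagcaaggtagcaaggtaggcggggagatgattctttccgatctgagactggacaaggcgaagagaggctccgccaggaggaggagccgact

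Plac8 holds the match once, at position -106 counted from its start site, and the Hopx and Car4 windows hold none. Of the 8 genes, 6 had entries in the promoter table, with 9 start sites between them, and the match occurred at 1 of the 9, against 6.25% of 32841 mouse promoters. The octamer ATGCAAAT, bound by POU factors, was in none of the 9, against 1.60% of all promoters. TGACNNNGC, the letters bound by NRF2 with small MAF partners, was in the Plac8 window above and at a single place shared by the overlapping windows of both Tmem54 start sites, against 10.2% of all promoters. Both strands were searched, no 2 of these motifs share their letters, and a match of letters shows no binding. The 8 genes lie on 6 chromosomes. Hopx spans chr5:77086986-77115123, Plac8 chr5:100551589-100572253 and Car4 chr11:84957754-84966054.

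At day 6 the Otx2-null PGCLC held more Cbr3, Ppp1r1a and Hopx RNA than WT PGCLC and less Ptn, Tmem54 and Car4 RNA. These 6 of 8 passed the test, 3 in each direction, against 21.3% of all genes (8.94% higher and 12.4% lower). Cbr3 was 4.62-fold higher (2.21, SE 0.21, adjusted p = 9.15e-08), Ppp1r1a 2.50-fold higher (1.32, SE 0.17, adjusted p = 4.05e-06) and Hopx 1.79-fold higher (0.84, SE 0.15, adjusted p = 0.000193). The gap was smaller on the second Cbr3 probe, which read 4.94 to 5.15 in WT PGCLC and 5.89 to 6.34 in Otx2-null PGCLC. Ptn was at least 4.42-fold lower (adjusted p = 7.69e-08) and Tmem54 at least 1.39-fold lower (adjusted p = 0.0129). Car4 was 1.47-fold lower (-0.56, SE 0.20, adjusted p = 0.0459), with overlapping arrays. Plac8 (0.03, 95% interval -0.50 to 0.56) and Cthrc1 (-0.33, -0.71 to 0.06) did not pass. The Tmem54 and Car4 calls were lost without WT PGCLC replicate 1 (adjusted p = 0.109 and 0.238) or replicate 2 (0.0602 and 0.102). The Car4 call was also lost without Otx2-null PGCLC replicate 1 (0.201) or 3 (0.227) and without the detection filter (0.0753). With only these groups fitted, Car4 (0.125) and Tmem54 (0.0506) were lost. In the authors' normalised table Hopx differed by 0.04, Car4 by -0.01 and Tmem54 by -0.02, and Ptn by -1.20 with adjusted p = 0.0725.

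By summed signal, WT PGCLC were also the day-6 group highest in markers of other lineages. Some of these sums rested on few genes. In WT PGCLC the endoderm sum came mainly from Lama1 and Col4a1 (means 7.92 and 8.33), and Gata4 and Apoa1 were detected on no array. The mesoderm sum came mainly from Gata6 and Cdx2 (7.18 and 7.98), with Tbx6 and Eomes near the floor (5.10 and 4.97). The neural sum came mainly from Nes (6.80), with Ncam1 near the floor. Single markers did not all follow their sums. Mean Gata2 and Eomes were higher without cytokines (9.05 and 5.48) than in WT PGCLC (8.59 and 4.97). Tead4 and Lama1 were higher in Otx2-null PGCLC (7.65 and 8.06) than in WT PGCLC (7.19 and 7.92). Ncam1 was higher in Otx2/Blimp1-null PGCLC (5.26) than in WT PGCLC (4.95). The 7 trophoblast and amnion markers summed to 2070 to 3240 in WT PGCLC and to 354 to 1220 in the other day-6 groups, and all 7 were detected on each WT PGCLC array. The highest of these sums, 3240, was in WT PGCLC replicate 1, which also had the highest WT PGCLC values of Ptn, Tmem54, Car4, Plac8, Cthrc1 and Ppp1r1a. The other WT PGCLC arrays were at 2070 and 2080. Of 8 mesoderm markers 4 were tested, and these summed to 457 to 513 in WT PGCLC against 105 to 148 in the other day-6 groups. The 4 endoderm markers tested, of 8, summed to 574 to 648 against 167 to 566, with 2 to 3 detected on each day-6 array, and the 2 neural markers to 129 to 156 against 62.7 to 87.4. The part of these markers in the Ptn, Tmem54 and Car4 differences was not tested. Leaving out WT PGCLC replicate 1 gave a Ptn difference of -2.02 (adjusted p = 2.44e-07) between Otx2-null and WT PGCLC, and the 6 fits that left out an array ran from -2.75 to -2.02.

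The culture without cytokines addresses whether the Otx2-null cells lose these transcripts without the induction signals. Against Otx2-null PGCLC with cytokines, 3 of the 8 genes passed and all were lower without cytokines, against 15.7% of all genes (7.37% higher and 8.38% lower). Ppp1r1a was 2.85-fold lower (-1.51, SE 0.17, adjusted p = 6.88e-07) and Hopx at least 2.15-fold lower (adjusted p = 4.22e-07). Cbr3 was 1.77-fold lower (-0.82, SE 0.21, adjusted p = 0.00917). Its second probe gave -0.03 (adjusted p = 0.954) and the mean of both probes -0.43 (0.134), and the call was lost without Otx2-null PGCLC replicate 2 (0.0672) or the second array without cytokines (0.0667). The Hopx difference was -0.05 in the authors' normalised table, which ended that call. Tmem54 and Ptn were detected in neither group. Plac8 (-0.36, 95% interval -0.90 to 0.17), Cthrc1, detected on 1 of the 6 arrays (-0.35, -0.73 to 0.04), and Car4 (0.22, -0.19 to 0.63) did not pass.

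Set against WT PGCLC, the Otx2-null cells without cytokines differed in 5 of the 8 genes, 1 higher and 4 lower, against 24.4% of all genes (10.2% higher and 14.2% lower). Cbr3 was 2.61-fold higher (1.38, SE 0.21, adjusted p = 3.67e-05). Ptn was at least 4.46-fold lower (adjusted p = 4.24e-08), Tmem54 at least 1.40-fold (0.0127), Cthrc1 at least 1.21-fold (0.00966) and Hopx at least 1.20-fold lower (0.0121). Ppp1r1a (-0.19, 95% interval -0.54 to 0.16) did not pass. In the authors' normalised table only Cbr3 passed, with Ptn at -1.20 (adjusted p = 0.0654). The Tmem54 call was lost without WT PGCLC replicate 1 (0.107) or 2 (0.0592) or the second array without cytokines (0.0547). The Cthrc1 call was lost in the mean of its probes (-0.38, 0.0539), of which the second was detected in neither group.

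With Blimp1 deleted in addition to Otx2, 5 of the 8 genes were higher in PGCLC and none was lower, against 20% of all genes called higher, 28.3% called lower and 48.3% called in either direction. In Otx2-null PGCLC, Car4, Cthrc1, Tmem54 and Ptn were near the floor, with means of 4.80, 4.86, 4.78 and 4.70. They had little room to be lower. Hopx was 5.58-fold higher than in Otx2-null PGCLC (2.48, SE 0.15, adjusted p = 8.11e-11) and Plac8 3.99-fold higher (2.00, SE 0.26, adjusted p = 1.17e-06). Cthrc1 was 2.61-fold higher (1.38, SE 0.19, adjusted p = 2.13e-06), Ppp1r1a 2.35-fold higher (1.23, SE 0.17, adjusted p = 2.56e-06) and Cbr3 1.58-fold higher (0.66, SE 0.21, adjusted p = 0.0138). On every Otx2/Blimp1-null array these 5 genes stood above every Otx2-null PGCLC array. Car4, detected on 1 of the 6 arrays, did not pass (-0.25, 95% interval -0.66 to 0.16), and Tmem54 and Ptn were detected in neither group. The median difference of the 8 genes was 0.95 and that of all genes -0.07. The genes were chosen for a drop to day 6, so the lack of lower calls and this median cannot be weighed against all genes. The Cbr3 call was lost without Otx2-null PGCLC replicate 1 (adjusted p = 0.051) or 3 (0.0606) or Otx2/Blimp1-null PGCLC replicate 1 (0.0758). For Cthrc1, the authors' normalised table gave 0.07 (0.86), which ended the call.

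All 8 genes differed between Otx2/Blimp1-null and WT PGCLC, 5 higher and 3 lower, against 56.7% of all genes (22.5% higher and 34.2% lower). Hopx was 10-fold higher (3.32, SE 0.15, adjusted p = 1.06e-13), Cbr3 7.28-fold (2.86, SE 0.21, adjusted p = 2.28e-10), Ppp1r1a 5.89-fold (2.56, SE 0.17, adjusted p = 3.65e-11), Plac8 4.07-fold (2.03, SE 0.26, adjusted p = 5.25e-07) and Cthrc1 2.08-fold higher (1.05, SE 0.19, adjusted p = 3.97e-05). Ptn was at least 4.07-fold lower (adjusted p = 3.47e-09), Tmem54 at least 1.28-fold (0.00325) and Car4 at least 1.25-fold lower (0.00128). The authors' normalised table gave 0.06 for Cthrc1, -0.02 for Car4 and -0.02 for Tmem54, which ended those calls. The summed signal of the 4 EpiLC markers was lowest in Otx2/Blimp1-null PGCLC, at 2310 to 2500, against 3090 to 3800 in Otx2-null and 4660 to 5720 in WT PGCLC. Of those 4 markers (Fgf5, Pou3f1, Dnmt3b and Otx2), the Otx2 probe alone had its highest day-6 mean there, 10.39 against 7.63 in WT PGCLC. The sum of the 6 germ cell-like markers was also lowest there. The part of these markers in the differences of the 5 genes was not tested.

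**Figure D3:**
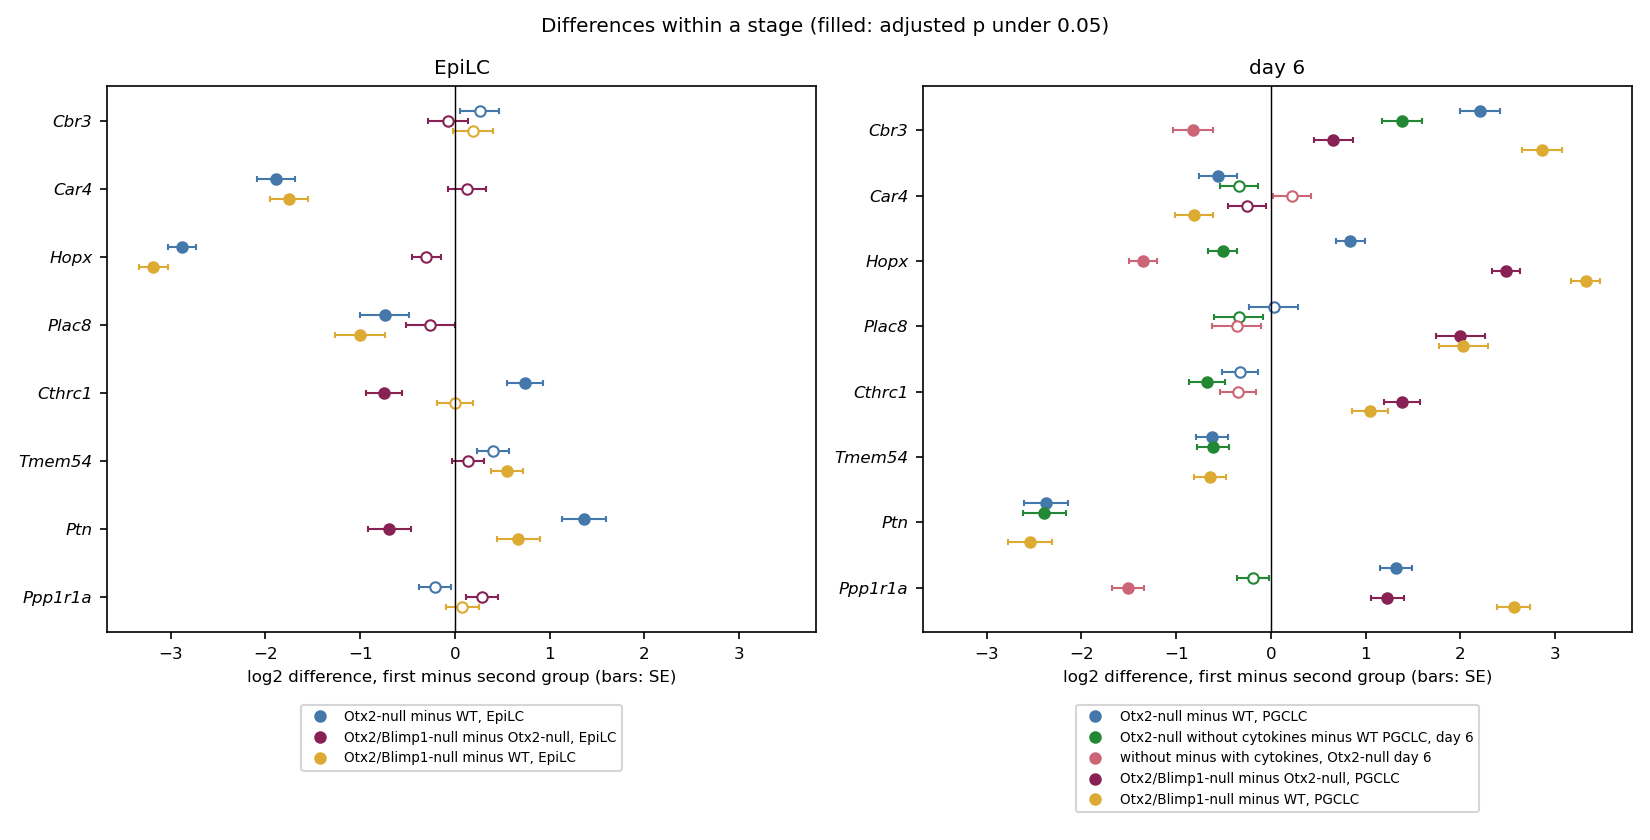
Differences in log2 signal (horizontal axis, first minus second group, with standard errors) for each gene (vertical axis) between EpiLC groups (left) and between day-6 groups (right), coloured by comparison. Filled points passed the test at an adjusted p of 0.05, and genes detected in neither group are left out. Fitted differences are plotted also for genes given with a bound in the text. Hopx is lower in both mutant EpiLC lines, at -2.88 and -3.18, and higher in Otx2/Blimp1-null than in WT PGCLC, at 3.32.

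The 8 genes did not all vary alike. Over the 21 arrays, which share the contrast between EpiLC and day 6, Pearson's r between pairs of them ran from 0.322 for Hopx and Ptn to 0.962 for Plac8 and Cthrc1, with a median of 0.853 over 28 pairs. Hopx and Ptn held the 3 lowest values between them, counting those of Hopx with Tmem54 (0.544) and Ptn with Ppp1r1a (0.636). Over the same arrays the 3 most similar genes were found for each member, as a description. For Cbr3 they were Polr3g, a subunit of RNA polymerase III found in pluripotent cells (r = 0.988), Alkbh3 and Knstrn. For Car4 they were the immunoproteasome subunit Psmb8 (0.988), Dcn and the myosin light chain Myl9, and for Ppp1r1a the immunoproteasome subunit Psmb10 (0.981), Mrps7 and H3c4. Plac8 was followed by the nucleoporin Seh1l (0.986), Ccdc93 and the retinol-binding protein Rbp7. Cthrc1 was followed by Idi1 (0.992), Mt3 and Pmvk, where Idi1 and Pmvk are enzymes of isoprenoid synthesis. Tmem54 was followed by Vrtn (0.993), Snorc and Epdr1, and Ptn by the retinoic acid-binding protein Crabp2 (0.962), Gbp2b and Dmkn. Hopx had the lowest best match, 1190005I06Rik (0.954), ahead of Gm3696 and Syce3.

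In WT induction each tested list of genes related to the members by family or pathway held some that fell and some that rose. Among 16 carbonyl and aldo-keto reductases tested, which act beside Cbr3, 9 fell and 2 rose from EpiLC to day 6 in WT (median -0.79, against 0.06 for all genes), where 62.8% of all genes passed the test, 27.4% falling and 35.4% rising. Cbr1, the closest relative of Cbr3, fell by 1.63 on the log2 scale (SE 0.17, adjusted p = 2.27e-08), and Hsd17b11 fell by 2.20 (SE 0.18, adjusted p = 4.19e-10). In Otx2/Blimp1-null cells Cbr1 instead rose by 0.48 (SE 0.17, adjusted p = 0.0295). Between Otx2/Blimp1-null and Otx2-null PGCLC, 8 reductases were higher and 1 lower (median 0.47), against 20% and 28.3% of all genes, with Cbr1 higher by 1.70 (SE 0.17, adjusted p = 5.92e-08). Of 15 targets of NRF2, the oxidative stress factor that controls many such enzymes, 7 fell and 3 rose in WT (median -0.36). Nqo1, a quinone reductase, fell by 2.61 (SE 0.20, adjusted p = 1.04e-10) while the glutathione transferase Gstm1 rose by 2.51 (SE 0.26, adjusted p = 1.54e-08).

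Of 8 carbonic anhydrases other than Car4, 3 fell and 1 rose in WT (median -0.14), against 27.4% and 35.4% of all genes. Car14 fell by 2.64 (SE 0.16, adjusted p = 1.93e-12) and Car12 rose by 1.10 (SE 0.19, adjusted p = 2.77e-05). In Otx2-null EpiLC 4 of the 8 were lower than in WT and none was higher, against 10.5% and 8.22% of all genes. Car14 was lower by 2.36 (difference -2.36, SE 0.16, adjusted p = 3.69e-10) and Car12 by at least 1.81-fold (adjusted p = 0.000156).

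Hopx acts with SRF and deacetylases, and the list for it held Srf, the deacetylase gene Hdac2 and target genes of SRF. Of its 10 tested genes, 7 were lower in Otx2-null than in WT EpiLC and none higher (median -0.77, against -0.03 for all genes, of which 10.5% were lower). The smooth muscle actin gene Acta2 differed by -4.94 (SE 0.24, adjusted p = 1.59e-12), Myl9 by -1.56 (SE 0.17, adjusted p = 4.80e-07) and Srf itself by -0.86 (SE 0.19, adjusted p = 0.00233). In WT induction 3 rose and 1 fell, against 35.4% and 27.4% of all genes. Myl9 fell by 3.41 (SE 0.17, adjusted p = 8.50e-14), and Egr1 and Fos rose by 2.35 (SE 0.39, adjusted p = 1.39e-05) and 2.73 (SE 0.50, adjusted p = 4.95e-05).

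Among genes that act with the secreted members, more rose than fell in WT, where 35.4% of all genes rose and 27.4% fell. Of 17 planar polarity Wnt genes, in which Cthrc1 takes part, 9 rose and 2 fell (median 0.45). The receptors Fzd5 and Ror2 rose by 3.12 (SE 0.14, adjusted p = 1.06e-14) and 3.20 (SE 0.19, adjusted p = 1.26e-12), and the ligand Wnt5a by at least 3.12-fold (adjusted p = 7.56e-13). Of 14 pleiotrophin relatives and receptors, 6 rose and 3 fell (median 0.31). Mdk, the only other member of the family of Ptn, rose by 0.62 (SE 0.13, adjusted p = 0.0003), and the coreceptor Nrp1 rose at least 2.48-fold (adjusted p = 5.80e-10). In Otx2/Blimp1-null against Otx2-null PGCLC, 7 Wnt genes and 5 pleiotrophin relatives were lower and none was higher, medians -0.36 and -0.26, where 28.3% of all genes were lower.

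Of 15 subunits and regulators of protein phosphatase 1, the enzyme that Ppp1r1a inhibits, 6 fell and 2 rose in WT (median -0.19). Of all genes, 27.4% fell and 35.4% rose in WT. The catalytic subunits Ppp1cb and Ppp1cc fell by 2.54 (SE 0.25, adjusted p = 5.08e-09) and 1.76 (SE 0.19, adjusted p = 3.63e-08). Between Otx2/Blimp1-null and Otx2-null PGCLC, 7 were higher and 1 lower (median 0.39), against 20% and 28.3% of all genes. The inhibitor genes Ppp1r14d and Ppp1r14a were higher by 3.03 (SE 0.27, adjusted p = 1.49e-08) and 1.93 (SE 0.19, adjusted p = 3.35e-08). Of 18 genes of the formative and primed epiblast, 10 fell and 4 rose in WT (median -0.65), and 9 were lower and 2 higher in Otx2/Blimp1-null than in Otx2-null PGCLC (median -0.45), against 28.3% and 20% of all genes. The DNA methyltransferase gene Dnmt3b was lower there (-1.35, SE 0.17, adjusted p = 1.17e-06). The Nodal coreceptor gene Tdgf1 was higher (2.04, SE 0.27, adjusted p = 1.62e-06). No relative of Plac8 with its cysteine-rich motif was tested, since neither of the 2 on the array passed the filter.

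**Figure D4:**
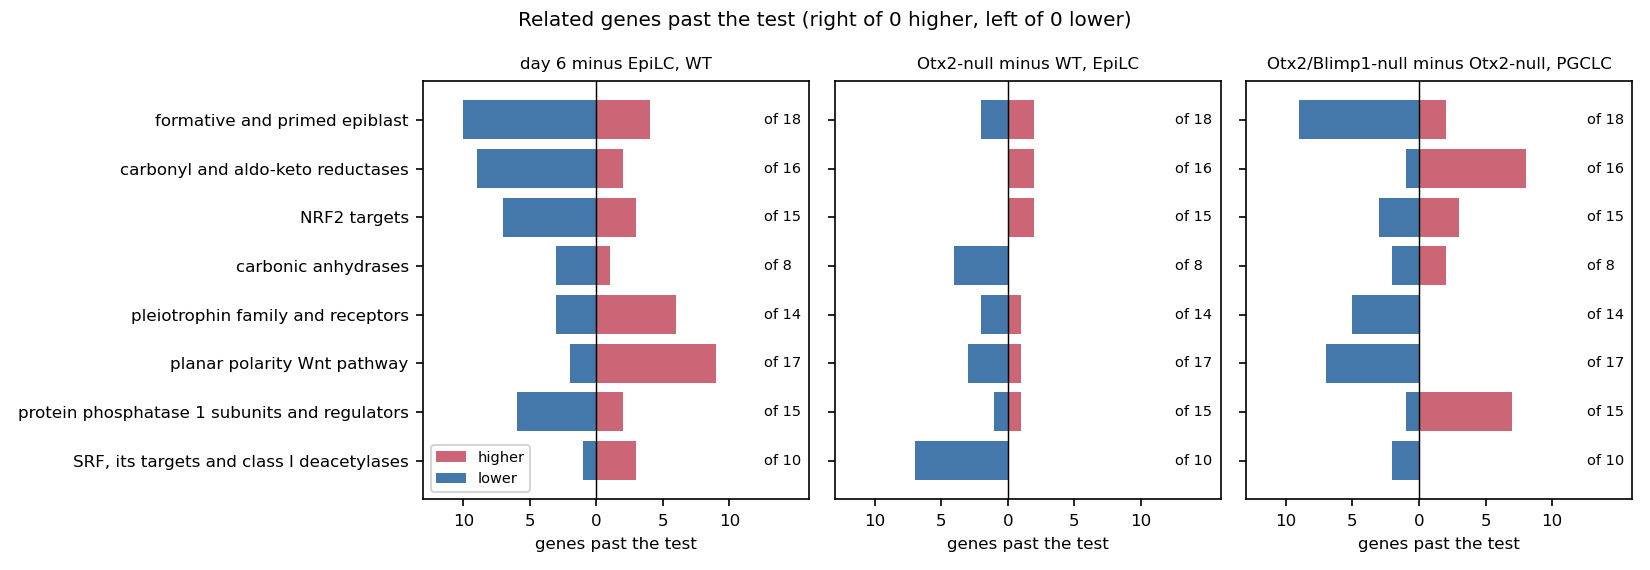
Number of genes past the test (horizontal axis, higher to the right of 0 and lower to the left) in each list of related genes (vertical axis) for day 6 against EpiLC in WT, Otx2-null against WT EpiLC, and Otx2/Blimp1-null against Otx2-null PGCLC, with the number tested at the right of each row. In the WT panel 9 of 16 reductases and 10 of 18 epiblast genes are lower, and 9 of 17 planar polarity Wnt genes are higher.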

How the data were processed

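Per the file headers, the authors deposited an intensity and a detection p-value for each of 45281 probes and 21 arrays, and a second table of normalized log2 values. Biotin-labelled cRNA was made from 100 ng of RNA with oligo-dT primers, per the labels' protocols. The submitters' processing notes name limma, and its version is not given in the sources used here. The lowest intensity is -19.6, so some background had been subtracted before deposit. In the intensities, Otx2-null PGCLC replicate 2 has its values listed in a different order of probes (Spearman 0.00547 with its normalized column, against 1 on other arrays) and was put in order by the ranks of that column. Detection p-values were taken from the normalized table, and 50 of that array's differ between the tables after ordering.

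The neqc function of limma 3.58.1 (R 4.3.3, package data.table, version 1.17.8) corrected the background, added 16, made the arrays' quantiles equal and took log2. A probe was kept where 3 or more arrays had its detection p below 0.05 (21647, of which 18156 were named). The probe with the highest mean stood for each of 11649 genes. The 7 groups were fitted together with lmFit and eBayes, two-sided, Benjamini-Hochberg, threshold 0.05. For arrays depth is signal over background, and the median standard error of 0.18 with 3 arrays a group limits the precision. The code was checked on simulated data.

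The members and gene lists were chosen with earlier results of these data known. All 8 members are named, with the 3 genes most like each by Pearson's r over 21 arrays, and of each list up to 4 genes with the smallest p and any against its median, shown in part. Only in Otx2-null against WT EpiLC did every same-numbered pair have deviations correlated above 0.1, at 0.135 to 0.29. The highest value, 0.324, was in Otx2-null against WT PGCLC, so pairing by replicate number is not established. Alternatives were the authors' table, an offset of 50 before log2, the detection filter, mean of probes, a replicate block, fits of 2 groups and leaving out each array. Slides are not named, so a slide block was not fitted. Promoters came from RefSeq (GRCm38.p6). Figures used Python 3.11.15, pandas 2.3.3, numpy 2.4.6 and matplotlib 3.10.9.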

Additional observations from a re-analysis of the deposited data

Results flagged for a closer look

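Several members lay to one side in EpiLC and to the other at day 6 when lines were compared, with no overlap of arrays in either stage, and none of these differences between stages was tested. The share of all genes that did so was not counted. Hopx in Otx2-null against WT cells was at -2.88 in EpiLC and 0.84 in PGCLC on the log2 scale, and in Otx2/Blimp1-null against WT cells at -3.18 and 3.32. Plac8 in Otx2/Blimp1-null against WT cells was at -1 in EpiLC and 2.03 in PGCLC. Tmem54 was at 0.40 and -0.62 in Otx2-null against WT cells and at 0.55 and -0.64 in Otx2/Blimp1-null against WT cells. The value of 0.40 did not pass its own test (adjusted p = 0.113), and the day-6 values are fitted differences against groups that did not detect Tmem54, for which the bounds are at least 1.39-fold and at least 1.28-fold lower. Ptn was at 1.36 and -2.37 in Otx2-null against WT cells and at 0.67 and -2.54 in Otx2/Blimp1-null against WT cells. Its day-6 values are likewise fitted against undetected groups, where the measured bounds are at least 4.42-fold and at least 4.07-fold lower. Cthrc1 in Otx2/Blimp1-null against Otx2-null cells was at -0.75 in EpiLC and 1.38 in PGCLC. As given above, several of these day-6 calls were lost in the authors' normalised table. They were Hopx, Tmem54 and Ptn in Otx2-null against WT cells, Tmem54 in Otx2/Blimp1-null against WT cells, and Cthrc1.

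From EpiLC to day 6, Hopx differed by -5.15 in WT and by -1.43 in Otx2-null cells, and by 1.35 in Otx2/Blimp1-null cells, with every array on the side of its group. That difference between lines was not tested.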

How the results depend on the processing

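Of 60 member differences within a stage, 41 kept direction and call in the authors' normalized table, 59 with an offset of 50, 56 without the detection filter, 58 with the mean of probes and 55 with only the groups compared. The authors' table called 2 members in Otx2-null against WT PGCLC, 1 in the cells without cytokines against WT PGCLC and 5 in Otx2/Blimp1-null against WT PGCLC, and put Cthrc1 at 0 between Otx2/Blimp1-null and WT EpiLC. Of the 32 differences between day 6 and EpiLC, 29 moved by more than the spread between replicates in the authors' table, 24 with an offset of 50 and 5 with the mean of probes, and none changed sign. Without the filter 1 member passed between Otx2/Blimp1-null and Otx2-null EpiLC, and with only those groups 0 passed, with 36 genes called. Otx2-null against WT EpiLC fitted alone called 1047 genes. The second Cthrc1 probe, chosen after seeing the data, was detected in no day-6 group and could not be used there. A replicate block left all 60 unchanged, with 2255 genes called in Otx2-null against WT EpiLC, where every same-numbered pair was correlated, against 2183 without it.

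Leaving out 1 array, members called ranged from 3 to 6 in Otx2-null against WT EpiLC, 0 to 2 in Otx2/Blimp1-null against Otx2-null EpiLC (603 to 1853 genes called) and 3 to 4 in Otx2/Blimp1-null against WT EpiLC. Small differences turned sign. In Otx2/Blimp1-null against Otx2-null EpiLC, Cbr3 ranged from -0.24 to 0.05, Plac8 from -0.48 to 0.03 and Tmem54 from 0 to 0.24. Cthrc1 in Otx2/Blimp1-null against WT EpiLC ranged from -0.19 to 0.15, through 0.03 and 0.09. Plac8 in Otx2-null against WT PGCLC ranged from -0.28 to 0.37, through -0.04 and -0.01, and Car4 in Otx2/Blimp1-null against Otx2-null PGCLC from -0.40 to 0.04. The causes were not tested. Day-6 levels of Car4 and Tmem54 lie near the background. So do those of Ptn outside WT PGCLC, of Cthrc1 outside Otx2/Blimp1-null PGCLC and of Hopx without cytokines. This limits differences among such groups. The slide alternative was not run.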
